A study of Mus musculus with 8 samples.

Results

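The expression of 6 genes that respond to metals or glucocorticoids was followed in mouse small intestine: the metallothioneins Mt1 and Mt2, and the glucocorticoid response genes Fkbp5, Tsc22d3, Sgk1 and Zbtb16. They were taken by gene name, which gave 6 of the 55421 genes in the deposited table. The tissue came from 2 groups of 4 libraries, all labelled WT. The Hypoxia+Nitrate mice breathed 7% oxygen for 7 days and also received 4 mM nitrate, and the Hypoxia mice breathed 7% oxygen for the same time without nitrate. Low oxygen is therefore shared by both groups, and intestine from mice at ambient oxygen was not analysed here. The labels do not state age, sex, strain, the route of nitrate or the intestinal segment, and nothing says that the 4 libraries of a group came from separate animals. P-values therefore measure the spread between these libraries, which may be partly technical. In whole tissue, fewer cells of a type and less RNA per cell cannot be told apart.

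Metallothioneins are small cysteine-rich proteins that bind zinc and copper and buffer them inside cells. Their genes are switched on by the zinc-sensing transcription factor MTF1, which binds short metal response elements in their promoters, and in mice also by glucocorticoids. In the intestine they are made in enterocytes and Paneth cells and rise with dietary zinc. Glucocorticoids act through the glucocorticoid receptor, which is held ready by the HSP90 chaperone and, once bound by hormone, binds inverted-repeat response elements near its target genes. Fkbp5 encodes an HSP90 co-chaperone that lowers the receptor's affinity for hormone, Tsc22d3 encodes the leucine zipper protein GILZ, Sgk1 encodes a kinase that raises the activity of epithelial ion transporters, and Zbtb16 encodes the zinc finger repressor PLZF.

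The promoter windows of the 2 metallothionein genes and one start of Sgk1 are printed because they hold elements of the kinds that MTF1 and the glucocorticoid receptor bind. Each window runs from 250 bases before to 49 bases after a RefSeq transcription start (GRCm38.p6, the start itself being position 0), and 5 of the 6 genes had an entry. The Mt1 window is chr8:94178839-94179138 on the plus strand, the Mt2 window is chr8:94172368-94172667 on the plus strand, and capitals in both mark the core of the metal response element, TGCACNC or TGCGCNC on either strand. The Sgk1 window is chr10:21993640-21993939 on the plus strand, and capitals mark the full glucocorticoid response element, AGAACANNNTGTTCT.
Mt1: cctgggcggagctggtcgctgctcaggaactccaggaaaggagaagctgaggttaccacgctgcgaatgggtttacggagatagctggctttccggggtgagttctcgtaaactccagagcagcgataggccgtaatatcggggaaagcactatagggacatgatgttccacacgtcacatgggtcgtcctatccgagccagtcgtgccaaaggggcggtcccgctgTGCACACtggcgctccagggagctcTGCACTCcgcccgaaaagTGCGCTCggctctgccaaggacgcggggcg
Mt2: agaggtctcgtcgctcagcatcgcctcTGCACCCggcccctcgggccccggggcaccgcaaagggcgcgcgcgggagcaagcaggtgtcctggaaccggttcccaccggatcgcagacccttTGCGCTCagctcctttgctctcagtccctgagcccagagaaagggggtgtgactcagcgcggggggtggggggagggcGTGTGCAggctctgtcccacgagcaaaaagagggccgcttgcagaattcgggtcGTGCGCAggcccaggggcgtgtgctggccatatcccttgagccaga
Sgk1: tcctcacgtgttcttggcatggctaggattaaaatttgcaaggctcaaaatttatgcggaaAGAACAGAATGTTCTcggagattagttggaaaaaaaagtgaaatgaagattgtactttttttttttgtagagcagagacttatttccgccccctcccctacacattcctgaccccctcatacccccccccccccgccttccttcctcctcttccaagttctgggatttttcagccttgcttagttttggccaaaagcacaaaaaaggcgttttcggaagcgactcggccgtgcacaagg
The Mt1 window held 3 metal response cores, which began at positions -23, 2 and 20. The Mt2 window held 4, which began at -223, -128, -50 and 4. All positions are counted from the annotated RefSeq starts, and where transcription began in this tissue was not examined. Cores placed after a start are therefore not shown to lie inside a transcript. Of the 32851 mouse RefSeq windows of this length, 25.7% held at least 1 such core, 1.97% held at least 3 and 0.517% held at least 4. The full glucocorticoid element was present in 3 of the 32851 windows (0.00913%), and the printed Sgk1 window was 1 of them. There it covered chr10:21993701-21993715, ending 951 bases before the most downstream of the 6 RefSeq starts of Sgk1. The half-site AGAACA, on either strand and contained in the full element, was in 6233 of all windows, in 3 of the 6 Sgk1 windows and in 1 of the 3 Tsc22d3 windows. The windows of Mt1, Mt2 and Fkbp5 held no half-site. A match describes letters only, and a window without one says nothing about sites elsewhere.

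The libraries differed in ways that touch every value below. Total counts lay between 8662279 and 63943036 in Hypoxia+Nitrate and between 5345377 and 21835865 in Hypoxia. Odorant, vomeronasal and trace-amine receptor genes, taken as silent in intestine, had counts in 31.2% to 82.3% of cases in Hypoxia+Nitrate and in 99.0% to 99.6% of cases in Hypoxia. Read per kilobase of exon, they give an expected background of 12.1% ± 10.9 of the nuclear protein-coding counts in Hypoxia+Nitrate and 51.0% ± 10.5 in Hypoxia (SD, n = 4 each). Annotated genes over ribosomal RNA sequence, such as Gm42418 and Gm26917, took 2.33% to 22.0% of counts in Hypoxia+Nitrate and 75.7%, 73.7%, 7.06% and 45.0% in Hypoxia 1 to 4, which enters every CPM of total counts. Hypoxia+Nitrate 1 and 4 stood apart from Hypoxia+Nitrate 2 and 3, with 64.0% and 49.3% of counts on mitochondrial protein-coding genes against 7.31% and 6.90%, and the share in Hypoxia was at most 1.06%. Summed enterocyte markers were between 1206 and 42448 CPM (counts scaled to a common library size) in Hypoxia+Nitrate. In Hypoxia they were between 46.4 and 760 CPM. All 9 had counts in every library, but in Hypoxia so did nearly all receptor genes. The summed marker counts were 8.28, 37.8, 1.89 and 1.96 times the expected background in Hypoxia 1 to 4. In Hypoxia+Nitrate they were between 81.4 and 8772 times background. The part of these differences in the results below was not tested, except where a fit that accounts for one of them is given.

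Of the 6 genes, 5 were higher in Hypoxia+Nitrate intestine than in Hypoxia intestine by edgeR's quasi-likelihood test with Benjamini-Hochberg adjustment over all 35431 genes tested, at an adjusted p under 0.05. Over all tested genes, 24.4% passed, 11.7% in this direction and 12.7% in the other. Of those calls 48.1% were thus higher, against 35.0% under RLE, 34.4% under upper-quartile scaling and 13.5% with library size alone. The 5 genes were Mt1, Mt2, Fkbp5, Tsc22d3 and Sgk1, and Zbtb16 did not pass. In CPM on trimmed-mean (TMM) library sizes, the 4 Hypoxia+Nitrate libraries lay above the 4 Hypoxia libraries for all 6 genes, which was so for 12.0% of tested genes. The median log2 fold change of all tested genes was -0.58, so TMM did not centre the comparison on 0. Under RLE, upper-quartile and plain library-size scaling that median was -0.87, -0.94 and -1.07, and the 5, 5 and 2 genes called higher then stood against 9.14%, 8.03% and 0.686% of tested genes. The count also depended on single Hypoxia libraries, with 2, 3 and 3 of the 6 genes called without Hypoxia 1, 3 or 4, against 1.95%, 4.16% and 4.23% of tested genes. Leaving out Hypoxia 2, or Hypoxia+Nitrate 1, 2, 3 or 4, kept 5 calls, against 7.06%, 9.09%, 14.3%, 13.1% and 7.65%. Without both Hypoxia+Nitrate 1 and 4 there were 4 (10.1%), and without both Hypoxia 1 and 2 there were 0, with 5 at an unadjusted p under 0.05 (1.51% of tested genes passed). The same 5 genes passed with nuclear protein-coding genes alone (15.1% of tested genes), with no filter (9.33%), with a CPM filter (12.5%), in DESeq2 (8.85%) and in limma-voom without and with quality weights (10.9% and 15.8%). With the estimated background share of each library as a covariate, none of the 6 passed in edgeR, none had an unadjusted p under 0.05, Fkbp5 and Sgk1 changed sign (-0.78 and -1.60), and the fit called 0 genes over the whole table at the adjusted threshold (2648 at an unadjusted p under 0.05). That share did not overlap between the groups, at 2.74% to 23.2% in Hypoxia+Nitrate and 39.1% to 63.7% in Hypoxia, so that background and group cannot be told apart there.

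**Figure D1:**
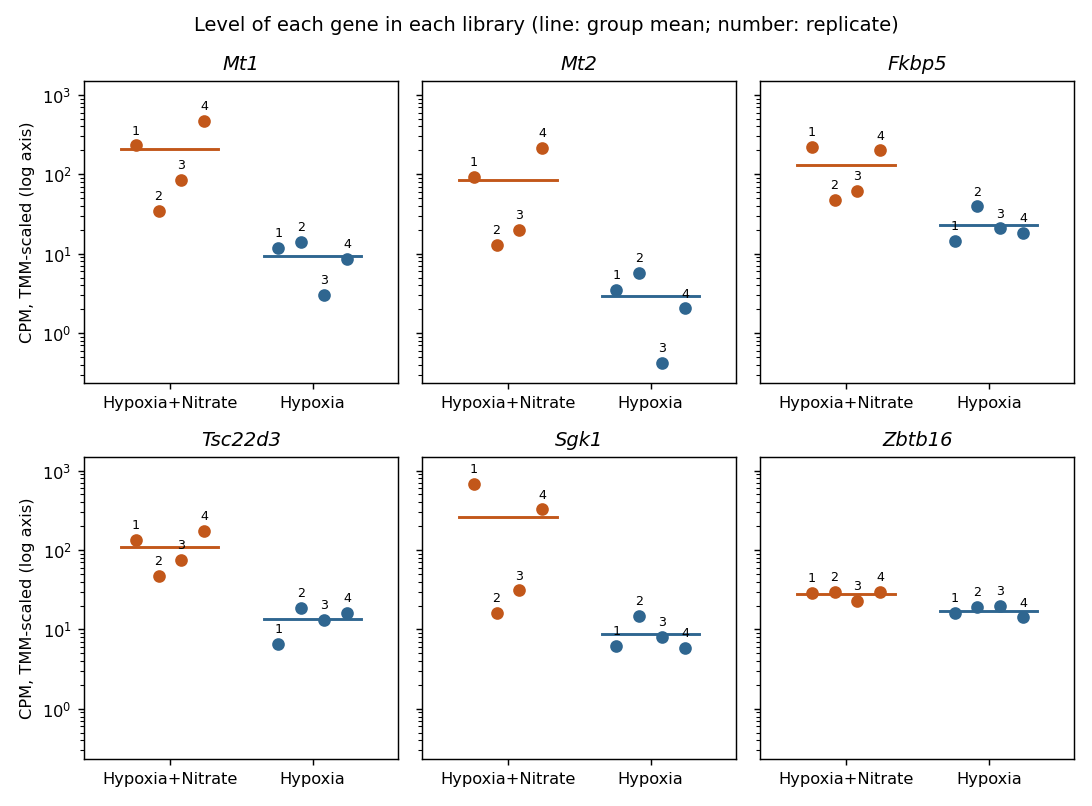
Levels of the 6 genes in each library, as TMM-scaled CPM on a log axis, with Hypoxia+Nitrate left of Hypoxia. Points are libraries with their replicate numbers and bars are group means. For Mt1, Mt2, Fkbp5 and Sgk1, Hypoxia+Nitrate 1 and 4 sit well above Hypoxia+Nitrate 2 and 3, while the 4 Zbtb16 values of that group lie between 23.0 and 29.8 CPM.

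Both metallothioneins were higher in Hypoxia+Nitrate, and their groups did not overlap in CPM of TMM-scaled, total or nuclear protein-coding counts, whereas the other 4 genes overlapped in CPM of total counts. Mt1 (ENSMUSG00000031765, chr8:94179082-94180327, plus strand, GRCm38) had 231, 34.8, 85.4 and 474 CPM in Hypoxia+Nitrate 1 to 4, against 11.9, 14.0, 3.004 and 8.61 CPM in Hypoxia 1 to 4. The lowest Hypoxia+Nitrate library was still above the highest Hypoxia library, and the Hypoxia+Nitrate libraries spread widely. Mt1 averaged 206 ± 197 CPM in Hypoxia+Nitrate and 9.38 ± 4.80 CPM in Hypoxia (SD, n = 4 each). It was 22.0-fold higher in Hypoxia+Nitrate, a log2 fold change of 4.46 (SE 0.906, edgeR adjusted p = 0.00945).

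Mt2 (ENSMUSG00000031762, chr8:94172664-94173568, plus strand) lies upstream of Mt1 on the same chromosome. It had 92.8, 12.96, 19.98 and 217 CPM in Hypoxia+Nitrate, against 3.54, 5.75, 0.42 and 2.05 CPM in Hypoxia. From highest to lowest the Hypoxia+Nitrate libraries ranked 4, 1, 3 and 2, as they did for Mt1, and Hypoxia 3 was the lowest Hypoxia library for both genes. Mt2 averaged 85.7 ± 94.8 CPM in Hypoxia+Nitrate and 2.94 ± 2.26 CPM in Hypoxia. The log2 fold change was 4.87 (SE 1.08, edgeR adjusted p = 0.0116), or 29.2-fold, and the call was lost without Hypoxia 1 (edgeR adjusted p = 0.0536). Of the 588 exonic bases of Mt2, 156 (26.5%) are shared with no other annotated gene, because the antisense gene Gm45774 (chr8:94170748-94173412, minus strand) overlaps the rest. Whether the authors' counting used strand is not given in the sources used here, so reads of the pair could have been assigned to either gene or dropped. Gm45774 itself had 170, 32, 58 and 471 counts in Hypoxia+Nitrate and 62, 67, 169 and 188 counts in Hypoxia, and did not pass the test (log2 fold change 0.45, SE 0.731, edgeR adjusted p = 0.652). The count of Gm45774 was 0.106 to 0.158 times that of Mt2 in Hypoxia+Nitrate and 0.848 to 21.1 times that of Mt2 in Hypoxia.

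The ratio of Mt1 to Mt2 counts within a library does not depend on scaling between libraries. It was 2.49, 2.68, 4.28 and 2.18 in Hypoxia+Nitrate, against 3.36, 2.44, 7.13 and 4.21 in Hypoxia. The groups overlapped, and the highest ratio, in Hypoxia 3, rested on 57 Mt1 counts and 8 Mt2 counts. The ratio averaged 2.91 ± 0.935 in Hypoxia+Nitrate and 4.28 ± 2.03 in Hypoxia (SD, n = 4 each), and 2.89 ± 0.930 and 3.96 ± 1.84 after the expected background was subtracted. That background was taken on all 1246 exonic bases of Mt1 but only on the 156 unshared bases of Mt2. If overlapped bases of Mt2 were counted, the subtracted ratios are too low. The other metallothionein genes, Mt3 and Mt4, lay under the count filter. Mt3, known mainly from brain, had 28, 0, 48 and 17 counts in Hypoxia+Nitrate and 12, 11, 15 and 20 in Hypoxia. Mt4, known from squamous epithelium, had 0, 0, 0 and 12 counts in Hypoxia+Nitrate and 12, 8, 15 and 8 in Hypoxia.

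Of the 4 glucocorticoid response genes, Tsc22d3 had the highest ratio of effect to error. The gene (ENSMUSG00000031431, chrX:140539528-140600659, minus strand) encodes GILZ, a mediator of anti-inflammatory glucocorticoid effects. It had 133, 46.9, 75.8 and 175 CPM in Hypoxia+Nitrate, against 6.54, 18.5, 13.2 and 16.0 CPM in Hypoxia. The groups were separated, and the Hypoxia+Nitrate libraries spread less than those of the metallothioneins. It averaged 108 ± 57.5 CPM in Hypoxia+Nitrate and 13.6 ± 5.15 CPM in Hypoxia. The gene was 7.94-fold higher in Hypoxia+Nitrate (log2 fold change 2.99, SE 0.584, edgeR adjusted p = 0.00917). Lymphocytes also express Tsc22d3, and summed T cell markers were between 59.9 and 155 CPM in Hypoxia+Nitrate and between 26.8 and 58.9 CPM in Hypoxia. Of the 6 markers, 1 was called higher, against 11.7% of all tested genes. The part of T cells in the Tsc22d3 result was not tested.

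Fkbp5 (ENSMUSG00000024222, chr17:28399094-28517527, minus strand) had 220, 47.4, 61.1 and 200 CPM in Hypoxia+Nitrate, against 14.4, 39.4, 20.8 and 18.4 CPM in Hypoxia. Hypoxia 2 came close to Hypoxia+Nitrate 2, and the other Hypoxia libraries were lower. Fkbp5 averaged 132 ± 90.3 CPM in Hypoxia+Nitrate and 23.2 ± 11.1 CPM in Hypoxia. Its log2 fold change was 2.51 (SE 0.654, edgeR adjusted p = 0.0207), or 5.68-fold. The call was lost without both Hypoxia+Nitrate 1 and 4, where the log2 fold change was 1.31 (edgeR adjusted p = 0.0601), and it was lost without Hypoxia 1, 3 or 4.

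Sgk1 (ENSMUSG00000019970, chr10:21882184-21999903, plus strand) split its own group the most. It had 679, 16.1, 31.0 and 324 CPM in Hypoxia+Nitrate, against 6.14, 14.7, 8.01 and 5.90 CPM in Hypoxia. Hypoxia+Nitrate 1 and 4 were far above all other libraries, while Hypoxia+Nitrate 2 differed little from Hypoxia 2. Sgk1 averaged 263 ± 312 CPM in Hypoxia+Nitrate and 8.69 ± 4.11 CPM in Hypoxia. The log2 fold change was 4.92 (SE 1.16, edgeR adjusted p = 0.0146), or 30.2-fold. Without both Hypoxia+Nitrate 1 and 4 it was 1.54, with Mt1 at 2.78, Mt2 at 2.58 and Tsc22d3 at 2.27, and these 4 genes still passed the test. Without Hypoxia 1, 3 or 4 the Sgk1 call was lost. In those 3 libraries Sgk1 lay near the background described below, so the 30.2-fold value is not well determined.

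Zbtb16 (ENSMUSG00000066687, chr9:48654297-48836222, minus strand) was the exception. It had 28.7, 29.5, 23.0 and 29.8 CPM in Hypoxia+Nitrate, against 16.1, 19.2, 19.7 and 14.2 CPM in Hypoxia. These groups were narrow and did not overlap on this scale. It averaged 27.7 ± 3.22 CPM in Hypoxia+Nitrate and 17.3 ± 2.63 CPM in Hypoxia. The log2 fold change was 0.68 (SE 0.353), with an unadjusted p of 0.0794 and an edgeR adjusted p of 0.166. It was 0.43 under RLE and 0.30 under upper-quartile scaling, and the sign turned with library size alone (-0.091) and in limma-voom on background-subtracted counts (-0.34).

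**Figure D2:**
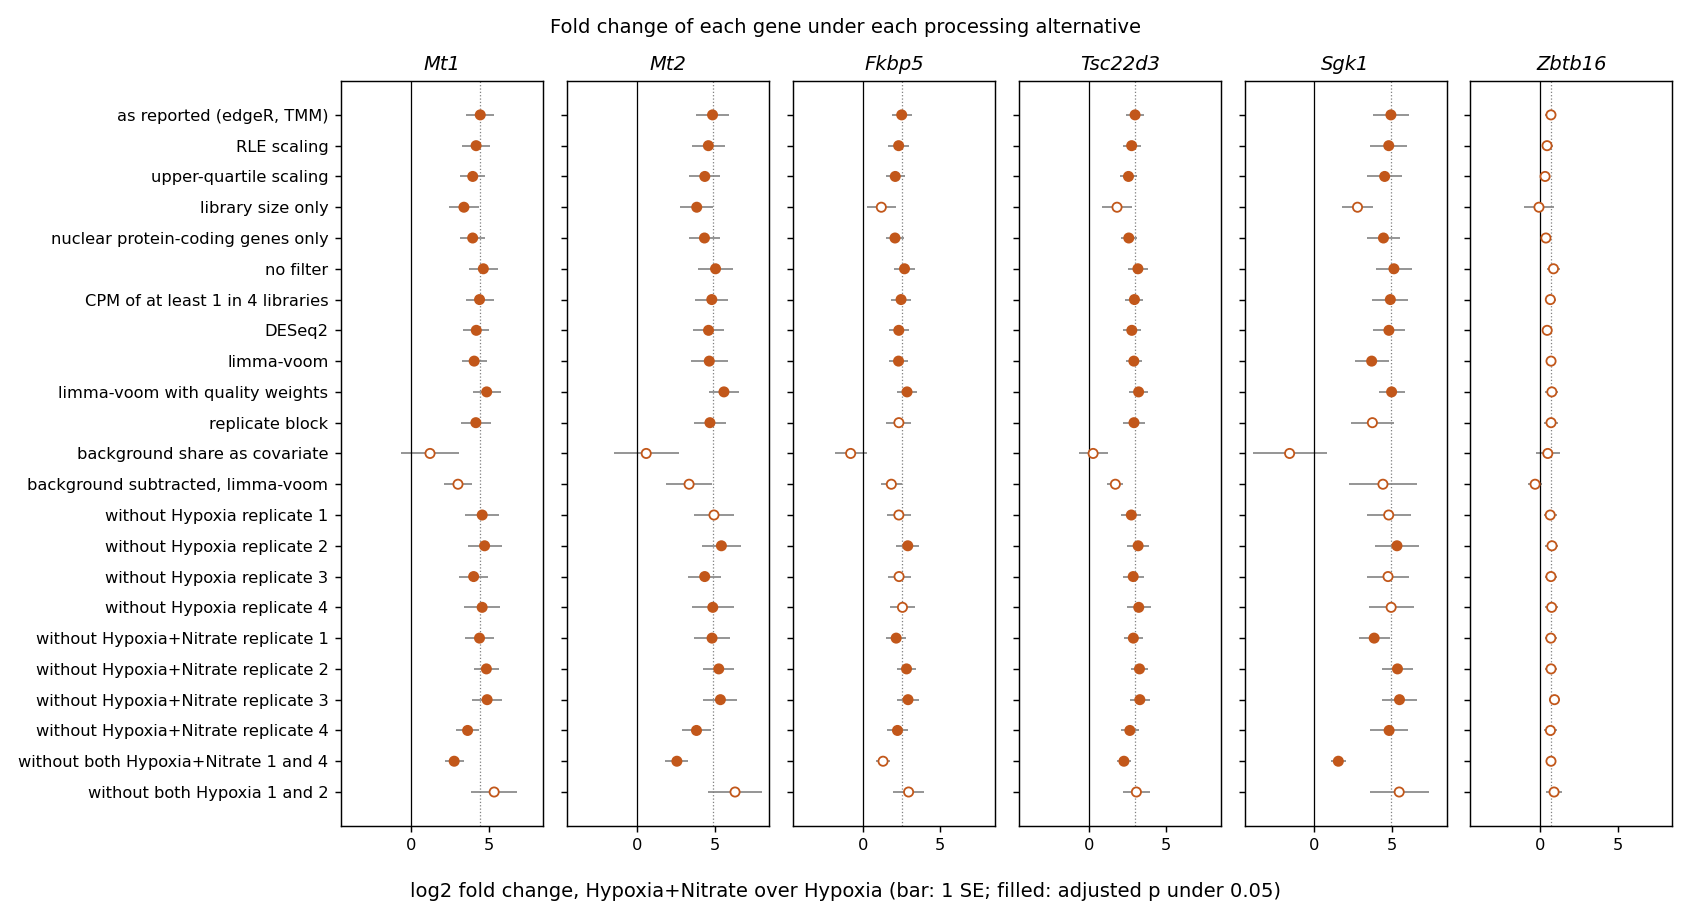
Log2 fold change of each gene, Hypoxia+Nitrate over Hypoxia, with 1 point for each way of processing and for each library left out, filled for an adjusted p under 0.05, bars of 1 SE, and a dotted line at the value as reported. Mt1, Mt2 and Tsc22d3 stay above 0 in every fit shown, Fkbp5 and Sgk1 fall to -0.78 and -1.60 with the background share as a covariate, and Zbtb16 lies on both sides of 0.

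The counts were then read against the background expected from the receptor genes for the same exonic length. Mt1 counts were 882, 38.8, 106 and 1640 times the expected background in Hypoxia+Nitrate, against 7.89, 12.9, 2.21 and 6.72 times in Hypoxia. Tsc22d3 counts were 292, 30.01, 54.2 and 348 times background in Hypoxia+Nitrate, against 2.49, 9.74, 5.58 and 7.18 times in Hypoxia. On these estimates both genes stood at 2.21 times background or more in all 8 libraries, as did Zbtb16 and Mt2 below. For Tsc22d3, on X, the expected background was halved as for 1 X copy, and the labels do not state sex. With more than 1 X copy its multiples would be lower, and its level in Hypoxia 1 would be less well determined. Sgk1 counts were 659, 4.56, 9.82 and 285 times background in Hypoxia+Nitrate, against 1.04, 3.43, 1.497 and 1.17 times in Hypoxia. Fkbp5 counts were 110.3, 6.96, 10.02 and 91.0 times background in Hypoxia+Nitrate, against 1.25, 4.76, 2.01 and 1.89 times in Hypoxia. In Hypoxia 1 and 4, most Sgk1 reads and the larger share of the Fkbp5 reads were thus of the size of the background. In Hypoxia 3 the expected background was 101.5 of 152 Sgk1 counts and 196 of 395 Fkbp5 counts. The level of both genes in Hypoxia 1, 3 and 4 is therefore not well determined. Zbtb16 counts were 25.8, 7.76, 6.75 and 24.3 times background in Hypoxia+Nitrate, against 2.52, 4.16, 3.42 and 2.61 times in Hypoxia. The multiples for Mt2, between 115 and 6005 in Hypoxia+Nitrate and between 2.48 and 42.2 in Hypoxia, take background only on its 156 unshared bases and are upper values if overlapped bases were counted.

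**Figure D3:**
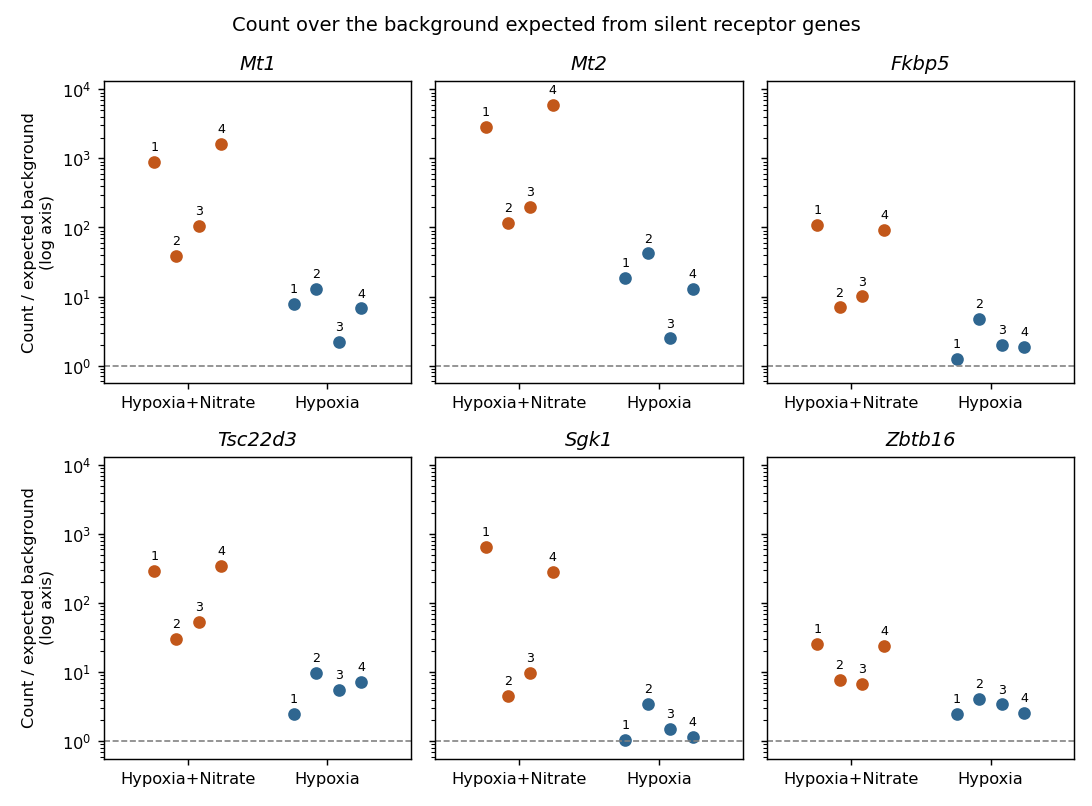
Count of each gene divided by the count expected from the receptor-gene background in the same library, on a log axis, with Hypoxia+Nitrate left of Hypoxia. Points are libraries with their replicate numbers, and the dashed line marks a count equal to background. Sgk1 in Hypoxia lies between 1.04 and 3.43 times background, and Mt1, Mt2, Tsc22d3 and Zbtb16 stand at 2.21 times or more in every library. The background is taken on the 156 unshared bases for Mt2 and is halved for Tsc22d3 on X.

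Counts above background, scaled to CPM of the nuclear protein-coding counts above background, separated some genes and not others. Mt1 had 350, 149, 332 and 625 in Hypoxia+Nitrate, against 145, 100.3, 18.1 and 64.5 in Hypoxia, so that Hypoxia+Nitrate 2 was only just above Hypoxia 1. Tsc22d3, on its halved background, had 201, 199, 292 and 231 in Hypoxia+Nitrate, against 54.6, 128, 119.7 and 121 in Hypoxia. Its groups did not overlap, and the 4 Hypoxia+Nitrate libraries were close together. Mt2 was also separated, with 56.5 as its lowest value in Hypoxia+Nitrate and 46.7 as its highest in Hypoxia. Fkbp5 had 330, 178, 216 and 261 in Hypoxia+Nitrate, against 40.5, 241, 116 and 76.0 in Hypoxia, and the groups overlapped through Hypoxia 2. Sgk1 had 1029, 55.2, 109 and 426 in Hypoxia+Nitrate, against 2.96, 80.7, 29.3 and 7.58 in Hypoxia, and overlapped through the same library. Zbtb16 overlapped on this scale as well, with 41.8, 113, 76.8 and 37.8 in Hypoxia+Nitrate and 135, 113, 154 and 76.8 in Hypoxia. In limma-voom on background-subtracted counts, none of the 6 genes passed the adjusted threshold and 4 had an unadjusted p under 0.05. The adjusted p was 0.0545 for Mt1, 0.0523 for Tsc22d3, 0.103 for Fkbp5, 0.155 for Mt2 and 0.193 for Sgk1, with log2 fold changes of 3.02, 1.72, 1.84, 3.36 and 4.41 in the same order, and 4.24% of tested genes passed upward in this fit.

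Per kilobase of exon, the metallothioneins led in every Hypoxia+Nitrate library, but not in every Hypoxia library. Mean TMM-scaled CPM per exonic kilobase in Hypoxia+Nitrate was 166 ± 158 for Mt1, 146 ± 161 for Mt2, 53.6 ± 63.6 for Sgk1, 24.8 ± 13.2 for Tsc22d3, 13.9 ± 9.54 for Fkbp5 and 5.25 ± 0.609 for Zbtb16. Over all annotated exonic bases Mt1 ranked first and Mt2 second in all 4 libraries. The annotated exons of Mt1 form 1 block of 1246 bases that fills the whole gene span. If the transcripts present were shorter, its values per kilobase would be too low. Over the bases shared with no other gene, Mt2 was at 549.5 ± 608 in Hypoxia+Nitrate and 18.8 ± 14.5 in Hypoxia and lay above Mt1 in all 8 libraries, so the order of the pair depends on the length used. Sgk1 ranked 3, 6, 5 and 3 in Hypoxia+Nitrate 1 to 4, so its place above Tsc22d3 and Fkbp5 came from Hypoxia+Nitrate 1 and 4 alone. In Hypoxia the means were 7.53 ± 3.85 for Mt1, 4.997 ± 3.85 for Mt2, 3.27 ± 0.498 for Zbtb16, 3.13 ± 1.19 for Tsc22d3, 2.45 ± 1.17 for Fkbp5 and 1.77 ± 0.839 for Sgk1. In both groups the ranges of mean ± 1 SD of neighbours in the order overlapped, and Sgk1 ranked 6, 6, 5 and 6 in Hypoxia 1 to 4.

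The genes whose levels ran most like each of the 6 were taken as those with the smallest root mean square difference in log2 CPM over the 8 libraries, each gene centred on its own mean, among 14959 protein-coding genes. All values share the libraries' depth and background, so this is a description. Mt1 was nearest to Stub1 (0.303), Atp5d (0.311) and Gabarap (0.322), and Mt2 ranked 24 for Mt1. Mt2 was nearest to Atp5b (0.302), Slc25a3 (0.304) and Actg1 (0.319), and Mt1 ranked 14 for Mt2. Thus neither metallothionein was the other's closest match, although both lay near the top of the ranking. Fkbp5 was nearest to Npepl1 (0.144), Zmiz2 (0.185) and Atp6v0c (0.191), and Tsc22d3 to Sf3b4 (0.236), Imp3 (0.261) and Dazap1 (0.280). Sgk1 was nearest to Slc5a1, the intestinal sodium-glucose cotransporter (0.264), to Mep1b, a brush-border protease (0.357), and to Ggt1 (0.366). Zbtb16 was nearest to Slc37a1 (0.122), Ahr (0.142) and Zfp7 (0.143).

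Among 18 other genes that glucocorticoids are known to raise in various tissues, 14 were higher in Hypoxia+Nitrate, 0 were lower and 4 did not pass by edgeR's adjusted p. Over all tested genes, 11.7% were higher and 12.7% lower. The list had a median log2 fold change of 2.42, against -0.58 over all genes. The 3 with the smallest p encode the transcription factors Cebpb and Cebpd and the mTOR inhibitor Ddit4, which hypoxia also induces. Cebpb had 49.9, 26.3, 30.2 and 110 CPM in Hypoxia+Nitrate, against 3.67, 8.22, 8.33 and 2.41 CPM in Hypoxia (log2 fold change 3.25, SE 0.641, edgeR adjusted p = 0.00917). Cebpd had a log2 fold change of 2.69 (edgeR adjusted p = 0.00947) and Ddit4 one of 2.52 (edgeR adjusted p = 0.01001), and neither overlapped between groups. The clock gene Per1, a widely used readout of the receptor, had 93.0, 20.3, 19.2 and 35.7 CPM in Hypoxia+Nitrate, against 12.8, 14.98, 7.80 and 11.98 CPM in Hypoxia (log2 fold change 1.82, edgeR adjusted p = 0.0400). The 14 higher genes ran from Klf15, a metabolic transcription factor, at 1.38 to Pck1, the gluconeogenic enzyme, at 5.48, and both were picked for these extremes. The 4 that did not pass were Klf9 at 0.94, Angptl4 at 2.98, Hif3a at -0.93 and Lcn2 at -1.83. The count of 14 became 9 without both Hypoxia+Nitrate 1 and 4, where 10.1% of all tested genes were called higher. It became 1 with library size alone (0.686% of tested genes) and 1 without both Hypoxia 1 and 2 (1.51%). After background subtraction it was 0 at the adjusted threshold in limma-voom (4.24% of tested genes), with 4 genes higher at an unadjusted p under 0.05. Lcn2 passed as lower after background subtraction (-5.43, limma-voom adjusted p = 0.0377) and without both Hypoxia+Nitrate 1 and 4 (-1.93, edgeR adjusted p = 0.0317). Its counts in Hypoxia+Nitrate were 1.08 times background, so little was left there after subtraction. The size of the -5.43 is therefore not well determined.

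**Figure D4:**
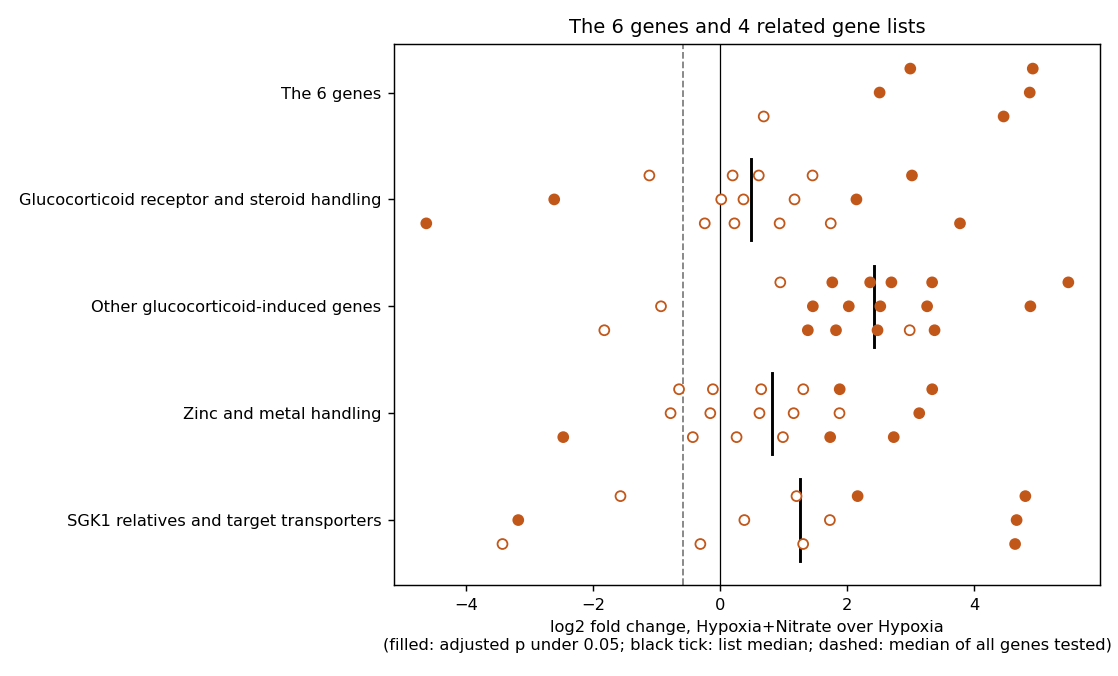
Log2 fold changes, Hypoxia+Nitrate over Hypoxia, of the 6 genes and of 4 related gene lists, with 1 point per tested gene, filled for an adjusted p under 0.05. Vertical ticks mark list medians, which run from 0.48 to 2.42, and the dashed line marks the median of all tested genes at -0.58.

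A list of 16 genes covered the receptor, its chaperones and coactivators, and the proteins that make, convert or export its hormones. Of these, 3 were higher, 2 were lower and 11 did not pass, against 11.7% higher and 12.7% lower over all tested genes. The median log2 fold change of the list was 0.48. The glucocorticoid receptor gene Nr3c1 had 118, 223, 261 and 171 CPM in Hypoxia+Nitrate, against 32.7, 95.4, 92.1 and 62.6 CPM in Hypoxia. The groups did not overlap, but the gene did not pass the test (log2 fold change 1.45, SE 0.549, edgeR adjusted p = 0.0748). The 3 higher genes encode the chaperones that hold the receptor, Fkbp4 at 3.02 (SE 0.558, edgeR adjusted p = 0.00917), Hsp90ab1 at 3.77 (SE 0.808, edgeR adjusted p = 0.0106) and Hsp90aa1 at 2.14 (SE 0.514, edgeR adjusted p = 0.0155). Fkbp4, whose protein competes with FKBP5 for the receptor complex, had 87.2, 64.0, 82.0 and 205 CPM in Hypoxia+Nitrate, against 9.55, 20.9, 13.4 and 10.4 CPM in Hypoxia. The lower genes, Cyp11a1 at -2.61 and Cyp11b1 at -4.63, encode steroid-synthesis enzymes, and in Hypoxia their counts were 1.12 and 1.47 times background. Hsd11b2, which inactivates glucocorticoids in epithelium, had a log2 fold change of -1.12 and did not pass (edgeR adjusted p = 0.248). After background subtraction Fkbp4 and Hsp90ab1 still passed as higher in limma-voom, where 4.24% of tested genes did. The list had 5 higher genes without both Hypoxia+Nitrate 1 and 4 (10.1% of all tested genes), and 1 with library size alone (0.686%).

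Of 18 tested genes for the zinc sensor and for zinc, iron and copper transport, 5 were higher, 1 was lower and 12 did not pass. Over all tested genes, 11.7% were higher and 12.7% lower. The median log2 fold change of the list was 0.81. Mtf1, which encodes the zinc sensor, had a log2 fold change of 0.98 and did not pass (edgeR adjusted p = 0.109). The zinc exporter gene Slc30a1, another MTF1 target, had 10.2, 8.93, 4.57 and 11.5 CPM in Hypoxia+Nitrate, against 9.41, 8.51, 12.3 and 9.03 CPM in Hypoxia. These values overlapped throughout (log2 fold change -0.16, edgeR adjusted p = 0.785). The zinc importer Slc39a1 was higher at 1.88 (edgeR adjusted p = 0.0107), as was Slc39a5, a zinc importer of the basolateral membrane of enterocytes, at 3.13 (edgeR adjusted p = 0.0153). Slc39a4, the importer of the apical membrane, passed at 2.73 (edgeR adjusted p = 0.0326) although its groups overlapped, with 70.7, 5.17, 6.86 and 54.6 CPM in Hypoxia+Nitrate and 4.81, 5.67, 3.53 and 6.68 CPM in Hypoxia. Slc39a10 was the lower gene, at -2.47 (edgeR adjusted p = 0.00944), with counts at 0.550 times background in Hypoxia+Nitrate and 1.37 times in Hypoxia. Without both Hypoxia+Nitrate 1 and 4 the list had 1 higher and 2 lower genes, against 10.1% and 17.6% of all tested genes. With library size alone it had none that passed, against 0.686% higher and 4.39% lower, and 0 higher at an unadjusted p under 0.05. After background subtraction, 3 of 13 tested genes passed as higher and 0 as lower in limma-voom, against 4.24% and 9.13% of tested genes.

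Of 12 relatives and transporter targets of SGK1, 4 were higher, 1 was lower and 7 did not pass, against 11.7% higher and 12.7% lower over all tested genes. The median log2 fold change of the list was 1.25. The higher genes included Atp1b1, which encodes a sodium pump subunit, at 4.64 (edgeR adjusted p = 0.0126), and the brush-border amino acid transporter gene Slc6a19, at 4.80 (edgeR adjusted p = 0.0129). Atp1b1 had 316, 15.7, 17.2 and 230.4 CPM in Hypoxia+Nitrate, against 5.34, 9.97, 3.43 and 4.52 CPM in Hypoxia. Like Sgk1, it was highest in Hypoxia+Nitrate 1 and 4. The ubiquitin ligase gene Nedd4l, whose protein SGK1 phosphorylates, was also higher at 2.16 (edgeR adjusted p = 0.0152), and the sodium channel subunit gene Scnn1g was the lower gene at -3.18 (edgeR adjusted p = 0.0180). In Hypoxia their counts were 1.10 and 1.39 times background. Without both Hypoxia+Nitrate 1 and 4 the list still had 4 higher genes, against 10.1% of all tested genes. With library size alone it had 1 higher gene (0.686% of tested genes), and after background subtraction 1 of 7 tested in limma-voom (4.24%). Without both Hypoxia 1 and 2 it had 0 (1.51%), with 4 at an unadjusted p under 0.05. Hypoxia+Nitrate 1 and 4 also held the highest summed enterocyte markers, at 42448 and 41239 CPM, against 2235 and 1206 CPM in Hypoxia+Nitrate 2 and 3. All 9 enterocyte markers were called higher, and 1 of 9 was without Hypoxia+Nitrate 1 and 4. Summed smooth muscle markers were between 1072 and 2422 CPM in Hypoxia+Nitrate and between 56.3 and 340 CPM in Hypoxia, with 5 of 5 called higher. Summed Paneth cell markers were between 245 and 1005 CPM in Hypoxia+Nitrate and between 16.3 and 88.7 CPM in Hypoxia, with 5 of 5 called higher and 4 of 5 without both Hypoxia+Nitrate 1 and 4. With library size alone, 6 of 9 enterocyte, 0 of 5 smooth muscle and 2 of 5 Paneth markers were called higher (0.686% of tested genes). After background subtraction these counts were 3, 0 and 1 in limma-voom (4.24%). Without both Hypoxia 1 and 2 they were 0, 1 and 4 (1.51%), with 9, 5 and 5 at an unadjusted p under 0.05. The part of cell composition in the Sgk1 and metallothionein values was not tested.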

How the data were processed

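RNA was sequenced from 8 small intestine libraries, with stranded library preparation per the labels' protocols, which at 1 step name islets instead of intestine. The authors deposited raw counts per gene. The submitters' processing notes name HISAT, featureCounts 1.5.0-p3, DESeq 1.8.3 and GRCm38. The strand setting, the annotation release and the treatment of multiply mapped reads are not stated there. Of 55421 gene IDs, 55240 matched GENCODE M21, which gave exonic lengths and positions. Genes were filtered with edgeR 4.0.16 (filterByExpr, minimum count 10, minimum total 15), scaled by TMM and tested with the quasi-likelihood test without covariates, with Benjamini-Hochberg adjustment over all genes and a threshold of 0.05. A standard error is the log2 fold change divided by the root of F. Background per exonic kilobase came from 1470 autosomal receptor genes, halved for genes on X and Y (0.5). Alternatives used limma 3.58.1 and DESeq2 1.42.0 in R 4.3.3, other scalings and filters, and each library left out. The edgeR and limma-voom fits were also run on simulated counts with known changes. Those counts held no difference in background between the groups, so that run cannot test its effect.

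The named genes were all 6 members and, from each related list, fixed readouts and the 3 called genes with the smallest p. A gene that this rule names is not reported here. Any other gene was named after its values were seen. The members and lists were chosen with earlier results of these data known. Precision at low depth is poorest for Mt2 in Hypoxia, with 8 to 79 counts per library. Counts over the 6 genes and over the related lists under each alternative were added after seeing the data.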

Additional observations from a re-analysis of the deposited data

Results flagged for a closer look

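Zbtb16 in Hypoxia+Nitrate 3 stood apart from its group. It had 23.0 CPM, while the other Hypoxia+Nitrate libraries lay between 28.7 and 29.8 CPM, and its gap to the nearest of them took up a share of 0.838 of the range of the 4 values. Of the 14 sets of 4 values examined this way, it was the single one past the limit, and chance alone passes about 1 in 20. The value still lay above all 4 Hypoxia libraries.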

How the results depend on the processing

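Of the 6 genes, Mt1, Mt2 and Tsc22d3 kept a positive log2 fold change in all 22 alternatives. Leaving out 1 library at a time gave 3.64 to 4.90 for Mt1, 3.84 to 5.44 for Mt2, 2.15 to 2.91 for Fkbp5, 2.65 to 3.30 for Tsc22d3, 3.84 to 5.47 for Sgk1 and 0.63 to 0.91 for Zbtb16. It gave 2 to 5 genes called higher of the 6, and 1932 to 22454 genes called over the whole table against 8653. The lowest whole-table count came without Hypoxia 1 and the highest without Hypoxia+Nitrate 2. With the background share as a covariate, 0 of the 6 and 0 genes in all were called. The log2 fold change was then 1.23 for Mt1 (SE 1.85), 0.60 for Mt2 (SE 2.10), -0.78 for Fkbp5 (SE 1.04), 0.29 for Tsc22d3 (SE 0.930) and -1.60 for Sgk1 (SE 2.38). Each was smaller in size than its SE, so the signs in that fit are not determined. In limma-voom on background-subtracted counts, 0 of the 6 and 2006 of 15000 genes were called, with 3.02 for Mt1, 3.36 for Mt2, 1.84 for Fkbp5, 1.72 for Tsc22d3, 4.41 for Sgk1 and -0.34 for Zbtb16. With library size alone, 2 of the 6 and 1800 genes were called, with 1.20 for Fkbp5, 1.83 for Tsc22d3, 2.77 for Sgk1 and -0.091 for Zbtb16. Without both Hypoxia+Nitrate 1 and 4, Fkbp5 fell out at 1.31. Without both Hypoxia 1 and 2, 0 of the 6 and 4227 genes were called, with 5.35 for Mt1, 6.32 for Mt2, 2.95 for Fkbp5, 3.07 for Tsc22d3 and 5.45 for Sgk1. The whole table gave 16708 calls with no filter, 22228 in DESeq2, 15818 in limma-voom and 20696 with quality weights. The cause of these changes was not tested.

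Nothing in the labels says that replicate numbers pair the libraries. The correlation of same-numbered deviations was 0.05, -0.18, 0.18 and -0.05, and not every library correlated best with its own number. These values cannot exclude a pairing, because depth and background also differ between the libraries. A replicate block left 3 of the 6 genes called higher, against 6.14% of tested genes, and 4791 genes called in either direction. With this block Fkbp5 stood at 2.33 (edgeR adjusted p = 0.0635) and Sgk1 at 3.73 (edgeR adjusted p = 0.0741). The block changed no other call among the 6. The Mt1 to Mt2 ratio moved by less than its spread in each of its alternatives. Depth limits Mt2 most, with 8 to 79 counts in the Hypoxia libraries.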
